A study of Mus musculus with 4 samples.

Results

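The Id proteins (Id1, Id2 and Id3) and the E proteins (Tcf3, Tcf4 and Tcf12) were followed in T cells of wild-type (WT) and KO mice after culture under Treg-inducing conditions. Probe sets, groups of short array probes for 1 transcript, were taken where the platform annotation names exactly 1 gene and that gene is one of these 6. All 6 genes, of 18194 named in this way, had at least 1 such probe set, and together they had 19 of the 45101 in the table: 1 for Id1, 3 for Id2, 1 for Id3, 3 for Tcf3, 6 for Tcf4 and 5 for Tcf12. The cells were naive T cells from spleen, kept for 3 days under the inducing conditions, and RNA was measured on 2 WT and 2 KO arrays. WT cells are labelled wild type and KO cells only as KO. The labels name neither the removed gene nor the strain, the age, the way the gene was removed or the agents of the culture, so the level of the removed gene is not reported. Each array carries its own numbered source of mice, with no word on separate animals or cultures. A p-value here measures only how these samples spread, part of which may be technical.

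E proteins are basic helix-loop-helix transcription factors that bind the DNA motif called the E-box, CANNTG, as dimers. Id proteins have the helix-loop-helix that forms the dimer but lack the basic region that binds DNA, so an Id protein paired with an E protein keeps it from DNA. In T cells E proteins drive early thymic development and restrain naive cells, Id2 is known from effector T cells and innate lymphoid cells, and Id3 from naive, memory and regulatory T cells. The symbol Tcf3 stands here for the gene also called E2A, Tcf4 for E2-2 and Tcf12 for HEB. They are distinct from the HMG-box factors of the Wnt pathway, Tcf7l1 and Tcf7l2, which have carried the names TCF3 and TCF4.

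The regions before the starts of Id2 and Id3 are shown because these 2 Id genes are the ones known for opposite T cell states. Each line gives the 250 bases before the RefSeq gene start (build GRCm38.p6), 5′ to 3′ on the strand of the gene, with every E-box CANNTG in capitals. Id2 lies on the minus strand and its window is chr12:25096093-25096342; Id3 lies on the plus strand and its window is chr4:136143572-136143821.
Id2: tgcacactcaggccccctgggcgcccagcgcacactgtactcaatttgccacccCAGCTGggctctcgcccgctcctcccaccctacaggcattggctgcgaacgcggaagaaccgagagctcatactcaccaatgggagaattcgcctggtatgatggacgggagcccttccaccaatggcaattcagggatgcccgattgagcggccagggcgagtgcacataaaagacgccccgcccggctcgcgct
Id3: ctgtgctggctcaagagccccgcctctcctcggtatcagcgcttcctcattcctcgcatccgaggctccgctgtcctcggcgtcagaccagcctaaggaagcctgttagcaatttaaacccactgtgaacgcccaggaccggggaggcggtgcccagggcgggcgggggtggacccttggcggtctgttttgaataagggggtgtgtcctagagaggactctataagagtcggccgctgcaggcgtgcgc
The Id2 window held 1 E-box, CAGCTG, which starts 196 bases before the gene start, and the Id3 window held 0. Windows of Tcf3 and Tcf12, not shown, were searched as well. The same CAGCTG lay in 1 Tcf12 window, 240 bases before that start. Another Tcf12 window held CAAGTG (149 bases before), a further one held 0, and the Tcf3 window held CACTTG (54 bases before). Of 32817 windows of the same length in the promoter table, 66.2% held CANNTG and 13% held CAGCTG. The E-box reads the same class of letters on both strands, so both were searched at once, and CAGCTG is a case of CANNTG. These matches are letters only, and no binding was measured here.

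Signals are MAS5 values, linear and scaled to the same trimmed mean on each array. Array medians lay between 56.48 and 62.57. KO was compared with WT on log2(signal + 16) with limma across 27022 probe sets after the 40% with the lowest mean were left out, and "rose" or "fell" means an adjusted p (Benjamini-Hochberg over all tested probe sets) under 0.05. Of all tested probe sets 17.1% passed, 7.89% higher and 9.17% lower in KO cells. The median log2 fold change of all was -0.0795 and was not subtracted from the values below. The labelled T cell identity was checked on 9 markers: 8 were measured and all 8 passed the filter. Cd3d, a chain of the T cell receptor complex, lay between 17974 and 25008, and Cd4 between 517 and 786. Of these markers 4 rose (Cd3d, Cd3e, Cd3g and Il2ra). The 2 that fell were Cd5 (log2 fold change -0.82) and Foxp3, the Treg lineage factor (-1.03), and Cd4 and Cd28 did not pass. Markers of other cells differed between the groups as well. The summed signal of the 6 mast cell and basophil markers was 217 and 345 in WT and 25187 and 15377 in KO cells. Mcpt1, Mcpt8 and Gata2 rose. The remaining 3, Cpa3, Fcer1a and Ms4a2, had WT levels under the lowest mean that passed the filter (33.2) and entered the test only through their KO values, so their calls there are not counted. In the limma fit with no filter their adjusted p was at most 0.0249. No member probe set entered the test through 1 group only. That of the 2 CD8 markers was 881 and 924 in WT and 2653 and 2196 in KO cells, and both rose. Of the 6 myeloid markers 5 were tested and 4 rose, with sums of 394 and 543 in WT and 1660 and 1415 in KO cells. Among those that rose, Lyz2 (30.1 and 41.7 in WT, 205 and 144 in KO cells) and Cd14 (5.88 and 109, 581 and 470) had WT levels only just above 33.2. Of 6 NK and innate lymphoid markers 4 were measured and 2 tested. Rora rose (not without the intensity trend), Kit did not pass (limma adjusted p = 0.207), and Ncr1 and Klra8 were too dim to be tested. The sums were 1161 and 1372 in WT and 2205 and 1846 in KO cells. Most of these came from Kit (616 and 713 in WT, 902 and 768 in KO cells) and Rora (491 and 643, 1227 and 1013). Of the 5 erythroid markers 2 were measured and neither passed the filter, with sums of at most 32.6 on any array. In such bulk samples more cells of a type and more RNA per cell cannot be told apart.

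**Figure D1:**
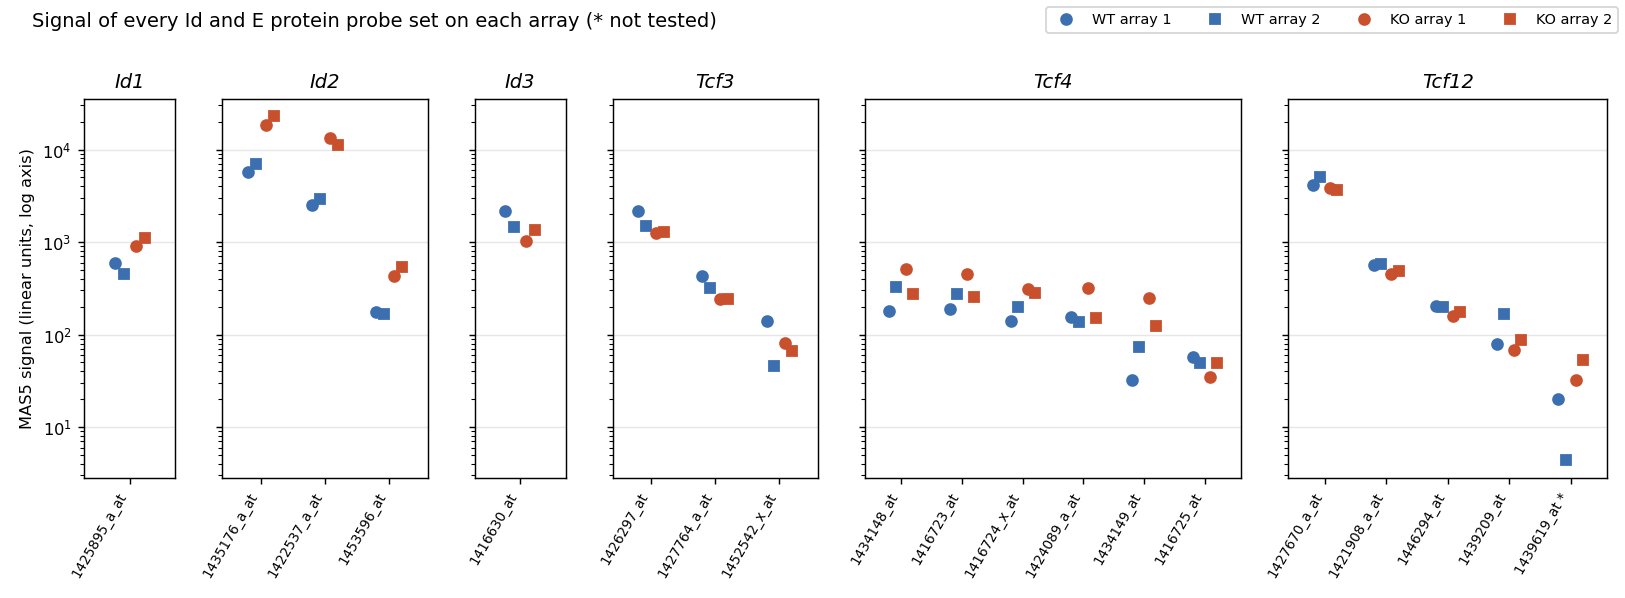
MAS5 signal (log axis) of all 19 probe sets on each array, 1 point per array, blue for WT and red for KO, circles for array 1 and squares for array 2. The KO points of Id1 and of all 3 Id2 probe sets lie above the WT points, those of Id3 lie below them, and the star marks the 1 probe set that was too dim to be tested.

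Of the 6 genes, Id1 and Id2 rose in KO cells, 1 of 6 Tcf4 probe sets rose, and none of the probe sets of Id3, Tcf3 and Tcf12 passed the test. Of these 8 tested probe sets 4 had an unadjusted limma p under 0.05, all with lower KO values, and Tcf3 gave more than 1 of them. The share of all tested probe sets under that threshold was not counted, so this is not read as a fall of these genes. Of the 19 probe sets 18 were bright enough to be tested, and 5 of these were called, all higher (27.8%, against 17.1% of all tested probe sets). Taking for each gene its leading probe set, the one with the highest mean over the arrays, 2 of 6 genes were called, against 20.3% of 12547 genes (10.5% higher and 9.87% lower). The 5 Id probe sets held 4 of the calls and the 13 tested E protein probe sets held 1. Both KO arrays lay above both WT arrays at 6 of the 18 probe sets and below them at 7. Over all tested probe sets these shares were 25.1% and 35.1%, so separation of the groups on its own was common on these arrays.

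Id2 rose at every probe set. Its leading probe set (1435176_a_at) read 5669 and 6953 on WT arrays 1 and 2 and 18295 and 22922 on KO arrays 1 and 2. The lowest KO value was thus well above the highest WT value, and the spread within each group was small beside the gap. The means were 6311 ± 908 in WT and 20608 ± 3271 in KO cells (SD, n = 2 per group), a 3.26-fold rise on the log2(signal + 16) scale (log2 fold change 1.70 ± 0.14 SE, limma adjusted p = 0.000126). The second probe set (1422537_a_at) read 2511 and 2924 in WT and 13392 and 11180.2 in KO cells. It gave a larger change, 2.17 ± 0.12 or 4.50-fold (adjusted p = 2.42e-05). The remaining one (1453596_at) read 177 and 167 in WT and 424 and 531 in KO cells, with a log2 fold change of 1.38 ± 0.20 (adjusted p = 0.00269). The 95% intervals of the log2 change were 1.39 to 2.01, 1.89 to 2.45 and 0.92 to 1.85. All 3 lie above 0. The interval of the leading probe set overlaps both others, and that of 1422537_a_at lies wholly above that of 1453596_at.

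Id1, a relative of Id2 with a classical role downstream of bone morphogenetic protein signals, has 1 probe set. It read 591 and 453 in WT and 909 and 1107 in KO cells, so the groups did not overlap. Its mean rose from 522 ± 97.7 to 1008 ± 140 (SD, n = 2 per group), or 1.91-fold (log2 fold change 0.93 ± 0.18 SE, limma adjusted p = 0.00958). This call depends on how the variance is modelled: without the dependence of variance on intensity the same fold change had an adjusted p of 0.0887. Id2 kept its call there.

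Id3 read lower on both KO arrays but did not pass. It read 2176 and 1468 on the WT arrays and 1039 and 1362 on the KO arrays. WT array 2 and KO array 2 lay close together, and WT array 1 stood well above both. The log2 fold change was -0.58 ± 0.20 SE with a 95% interval from -1.05 to -0.12 (limma adjusted p = 0.0879). Leaving out WT array 2 gave -0.86 and an adjusted p of 0.0155, leaving out KO array 2 gave -0.77 and 0.0437, and leaving out WT array 1 gave -0.30 and 0.403. Its interval did not overlap those of Id1 or Id2. The fourth Id gene, Id4, was no member, and its leading probe set, too dim to be tested, read 3.20 and 39.3 in WT and 7.30 and 16.7 in KO cells.

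**Figure D2:**
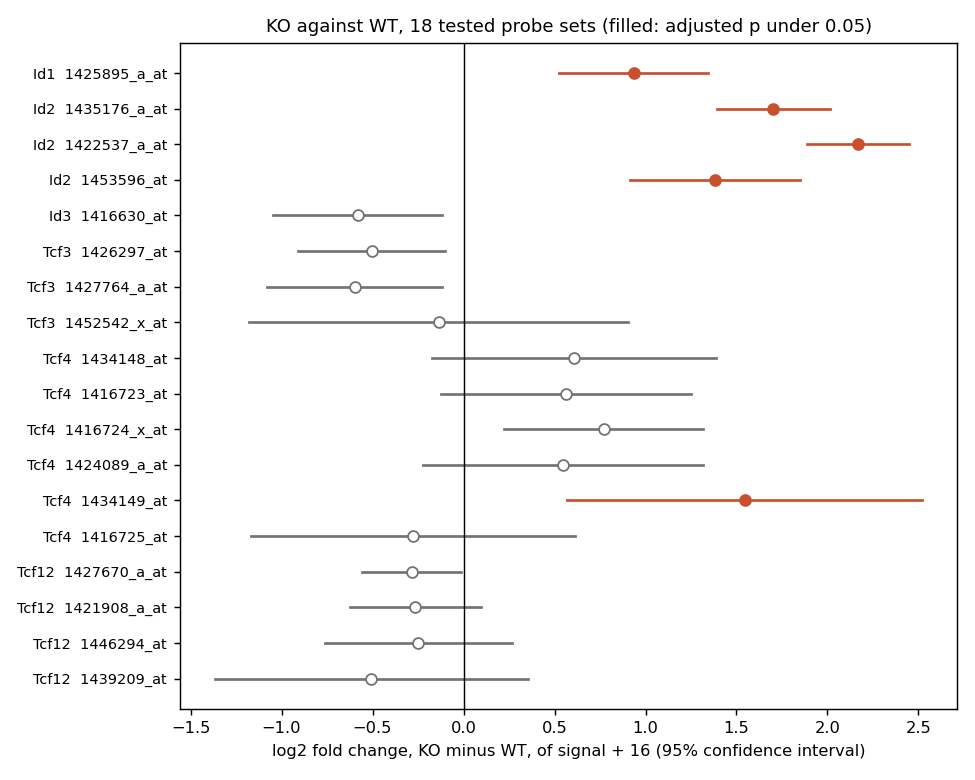
Log2 fold change, KO minus WT, of log2(signal + 16) with its 95% confidence interval for the 18 tested probe sets, with called probe sets filled. The Id1 and Id2 intervals lie to the right of 0, Id3 and the first 2 Tcf3 probe sets lie left of 0 without a call, and among the Tcf4 probe sets 1 of 6 is filled.

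Of the 13 tested E protein probe sets 1 was called (7.69%, against 17.1% of all tested probe sets). Their median log2 fold change was -0.25, against -0.0795 over all tested probe sets, but the genes went different ways. By gene the median over tested probe sets was -0.50 for Tcf3, -0.27 for Tcf12 and 0.58 for Tcf4. For Tcf3, whose splice forms E12 and E47 are the main E proteins of lymphocytes, the leading probe set (1426297_at) read 2179 and 1490 in WT and 1245 and 1286 in KO cells. Both KO values were below both WT values, and the 2 KO arrays were closer to each other than the 2 WT arrays were. The change was -0.50 ± 0.18 SE (log2, limma adjusted p = 0.0876), with a 95% interval from -0.91 to -0.10. A second probe set (1427764_a_at) read 432 and 322 in WT and 242 and 241 in KO cells, a change of -0.60 ± 0.21 (adjusted p = 0.0899). The third (1452542_x_at), of a type that shares probes with other sequences, read 141 and 45.8 in WT and 81.5 and 66.5 in KO cells. Its groups overlapped at a change of -0.13, which was 0.54 without WT array 1 and -0.81 without WT array 2. Whether the leading probe set passed depended on single arrays, as for Id3: without WT array 2 it was -0.78 with an adjusted p of 0.0128, and without WT array 1 it was -0.23 with 0.461. WT array 1 was the highest array for Id3 and for all 3 Tcf3 probe sets.

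Tcf12, which encodes the E protein HEB of thymocytes, did not pass at any probe set. Its leading probe set (1427670_a_at) read 4147 and 5023 in WT and 3876 and 3614 in KO cells. The groups did not overlap, yet the change was small, -0.29 ± 0.12 SE (log2, limma adjusted p = 0.144, 95% interval -0.56 to -0.01), and -0.15 without WT array 2. A second probe set (1421908_a_at) read 560 and 576 in WT and 451 and 490 in KO cells, a change of -0.26, and 1446294_at gave -0.25. The fourth (1439209_at) overlapped between groups. WT array 2, at 168, was far above WT array 1, at 79.1, and its change of -0.51 was -0.98 without WT array 1 and -0.03 without WT array 2. The fifth (1439619_at) was left out as too dim and read 19.9 and 4.35 in WT and 32.1 and 52.7 in KO cells. It is the only Tcf12 probe set on which both KO arrays were above both WT arrays.

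Tcf4, known as the defining factor of plasmacytoid dendritic cells and also expressed in B cells, varied widely between arrays of 1 group. Its leading probe set (1434148_at) read 181 and 323 in WT and 517 and 274 in KO cells. KO array 1 was high, WT array 1 was low, and WT array 2 was above KO array 2, so the groups overlapped. The change was 0.61 ± 0.34 SE (log2, limma adjusted p = 0.269), and leaving out 1 array gave values from 0.17, without KO array 1, to 1.05, without KO array 2. The probe set 1434149_at, which comes from the same source sequence, read 32.1 and 73.9 in WT and 249 and 123 in KO cells. It was the called one, at 1.54 ± 0.43 (adjusted p = 0.0407), and its call ended without WT array 1 (1.09, adjusted p = 0.131), without KO array 1 (1.08, 0.19), with no filter on dim probe sets (0.106) or without the intensity trend (0.136). A stricter filter on dim probe sets left 1434149_at out of the test. The probe set 1416724_x_at, of the type that shares probes with other sequences, read 139 and 198 in WT and 308 and 281 in KO cells. Its change was 0.77 ± 0.24 (adjusted p = 0.0601). It passed with quantile normalization (adjusted p = 0.043), median centring (0.041), the stricter filter (0.04998) and without WT array 2 (0.0469). The remaining 3 were at 0.56, 0.55 and -0.28 and did not pass, and the one at 0.55 (1424089_a_at) was at 0.04 without KO array 1 and passed at 1.05 without KO array 2. Thus 5 of 6 Tcf4 probe sets had a positive change and 1 a negative one.

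Markers of other cells that express Tcf4 were read on the same arrays. The summed signal of the 6 measured B cell markers was 557 on WT array 1, 1312 on WT array 2, 1147 on KO array 1 and 731 on KO array 2, and limma called none of the 5 tested (1, Cd22, was lower at an unadjusted p under 0.05, and it entered the test only through its WT values). Their orders of arrays differed. Cd79a, a chain of the B cell receptor, read 45.5 and 90.3 in WT and 156 and 67.5 in KO cells, and Ebf1, a B cell factor, read 26.6 and 69.4 in WT and 106 and 40.4 in KO cells, both in the order of the leading Tcf4 probe set. Ms4a1 (62.4 and 344 in WT, 148 and 107 in KO cells), Cd79b (358 and 651, 648 and 476) and Cd22 (61.7 and 150, 53.2 and 4.06) were highest on WT array 2. Cd79b was nearly level on WT array 2 and KO array 1, and apart from that it had the order of the leading Tcf4 probe set. Pax5, the B cell lineage factor, was too dim to be tested, at 3.23 and 7.40 in WT and 34.9 and 36.1 in KO cells. Of 7 plasmacytoid dendritic cell markers 6 were tested. Ccr9 and Bst2 rose and Spib fell, the last with 184 and 584 in WT and 95.04 and 64.05 in KO cells and a change of -1.88 that was -1.08 and without a call when WT array 2 was left out. The calls of Bst2 and Spib also ended without the intensity trend, and that of Spib with no filter or without KO array 2. Siglech, a surface lectin of these cells, was too dim to be tested, with 12.1 and 5.93 in WT and 33.5 and 84.9 in KO cells. The summed signal of the list was 8538 and 9766 in WT and 11357 and 11861 in KO cells, of which Irf8, also expressed outside these cells, held 5904 to 6554. The part of such cells in the Tcf4 signal was not tested.

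**Figure D3:**
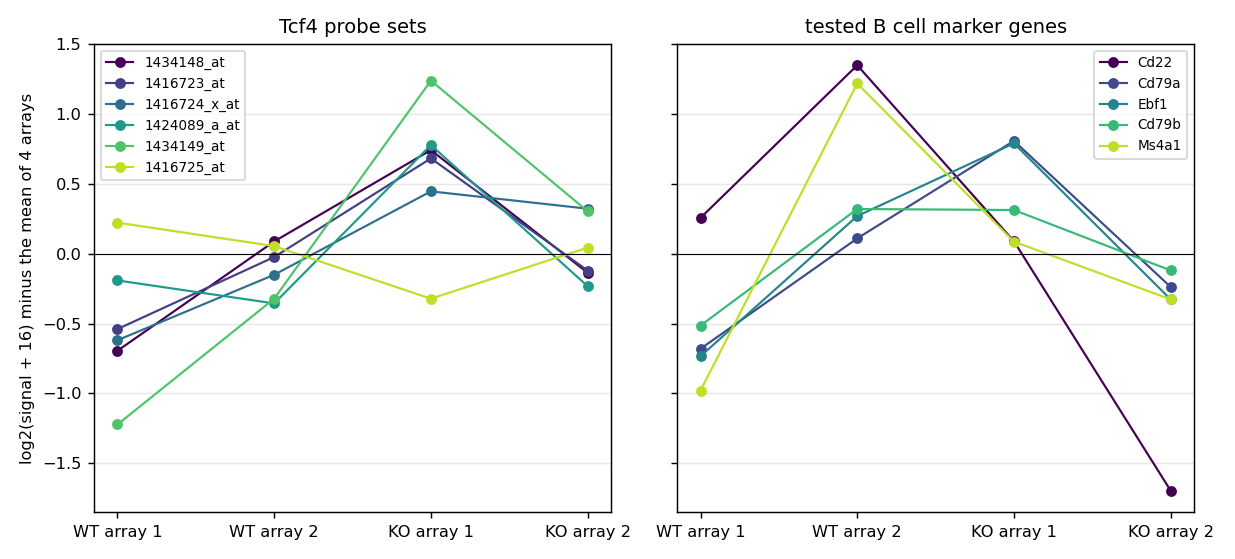
Log2(signal + 16) minus the mean of the 4 arrays for the 6 Tcf4 probe sets (left) and the 5 tested B cell markers (right), with lines joining the values of 1 probe set. The leading Tcf4 probe set, Cd79a and Ebf1 share their order of arrays, from KO array 1 through WT array 2 and KO array 2 to WT array 1, while the other 3 markers are highest on WT array 2. Of these, Cd79b is nearly level on WT array 2 and KO array 1.

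Genes whose pattern was most like that of each member were named by the smallest Euclidean distance over the 4 arrays of the centred log2 signals. For Id2 these were Nlrx1 (distance 0.035 on the log2 scale) and Tnip2 (0.073), both regulators of inflammatory signalling. For Id1 they were Sema4f (0.022) and Src (0.052). Id3 was most like Narf (0.049) and Itga10 (0.052), Tcf3 most like Creb5 (0.062) and Rexo1 (0.083), Tcf12 most like Ldah (0.027) and Pigm (0.032), and Tcf4 most like Mpv17 (0.099) and Cd79a (0.124). With 4 arrays many of 27022 probe sets come close to any pattern, so these names describe likeness on these arrays only. Itga10 (30.9 to 82.7), Creb5 (37.2 to 74.1) and Mpv17 (23.7 to 93.1) were also dim, near the lowest mean that passed the filter (33.2).

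Genes around this network were read from 5 lists of known partners, targets, regulators and states. They hold 84 genes, of which 80 were measured and 69 tested. Of these 36 were called (52.2%, against 20.3% of all genes by their leading probe set), 19 higher and 17 lower. The 36 and the 19 include Tal1, which entered the test only through its KO values. The lists were chosen with earlier results of these data known, so these shares are no test of the lists. Without the intensity trend 11 were called. Of the partners and cofactors 10 of 16 were tested, and limma called Tal1 higher and Crebbp lower. Of the 9 that did not enter the test through 1 group only, 0 were called higher and 1 lower (Crebbp). Tal1, a tissue-restricted helix-loop-helix partner of E proteins known from blood stem, erythroid and mast cells, read 17.5 and 26.2 in WT and 155 and 85.4 in KO cells (log2 fold change 1.81 ± 0.41 SE, limma adjusted p = 0.0193). Its WT level lay under the lowest mean that passed the filter (33.2), so it entered the test only through its KO values and its call is not read as a rise. With no filter its adjusted p was 0.062. The call was also lost without WT array 1 (adjusted p = 0.0518), without KO array 1 (0.125) and without the intensity trend (0.0602), and a pseudocount of 64 gave a change of 1.08. The summed signal of the mast cell and basophil markers given above was higher on the same arrays, and among them Gata2, a factor of these cells, read 97.3 and 118 in WT and 708 and 564 in KO cells. Their part in the Tal1 signal was not tested. Crebbp, a histone acetyltransferase that E proteins recruit, fell from 3932 and 3866 in WT to 2775 and 2281 in KO cells (-0.63 ± 0.12, adjusted p = 0.00966; 0.115 without the intensity trend). The other acetyltransferase genes were at -0.02 (Ep300) and -0.50 (Kat2a) and did not pass.

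Among 22 known targets of E proteins in lymphocytes 17 were tested, 5 rose, 4 fell and 8 did not pass. Thus 29.4% rose and 23.5% fell, against 10.5% and 9.87% of all genes. The median log2 fold change was 0.08 against -0.03 over all genes. Il7r, the interleukin-7 receptor chain, was at 1.97 ± 0.15 SE, Cxcr5, the follicular homing receptor, at 2.40 ± 0.27, Cdkn1a, a cell cycle inhibitor, at 0.82 ± 0.10 and Foxp3, the Treg lineage factor, at -1.03 ± 0.13 (log2, all with limma adjusted p of at most 0.00128). The calls of Foxp3 and Cdkn1a were lost without the intensity trend. Of the early lymphocyte genes on the list, Dntt, which encodes the polymerase that adds bases at receptor joints, read 335 and 822 in WT and 610 and 463 in KO cells (0.01), Vpreb1 was at 0.08 and Ebf1 at 0.46, none called. Rag1, Rag2, Ptcra and Igll1 were too dim to be tested, with no value over 57.9. Cd4 was at -0.33 and Notch1 at 0.02, neither called.

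Of 22 genes that act upstream of Id genes all were tested, 4 rose, 8 fell and 10 did not pass. Thus 18.2% rose and 36.4% fell, against 10.5% and 9.87% of all genes, and the median was -0.17. Prdm1, the Blimp-1 repressor, read 149 and 240 in WT and 1259 and 1003 in KO cells (2.47 ± 0.24 SE, limma adjusted p = 0.00031). Zeb2, a zinc finger E-box binding repressor, rose from a dim level, at 35.3 and 54.0 in WT and 184 and 226 in KO cells (1.87 ± 0.31). Smad4, the shared partner of the TGF-beta and BMP Smads, fell by 0.78, and Nfatc1, a factor activated by calcium, fell by 0.89, both without a call when the trend was left out. In the BMP arm the receptor gene Bmpr1a rose (0.79 ± 0.22) while Smad1 (-0.42 ± 0.11) and Smad5 (-0.67 ± 0.19) fell. These 3 calls ended without the intensity trend and without WT array 2, KO array 1 or KO array 2. That of Smad1 also ended without WT array 1 and with median centring, and the others with no filter. The immediate early genes Egr1, Egr2 and Egr3, which link T cell receptor signals to Id3, all fell, by 0.41, 0.65 and 0.98, and all lost their calls without the intensity trend. Those of Egr1 and Egr2 also ended without either WT array, and that of Egr1 with median centring or no filter. The TGF-beta receptor genes Tgfbr1 and Tgfbr2 were at 0.09 and -0.15 and did not pass.

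**Figure D4:**
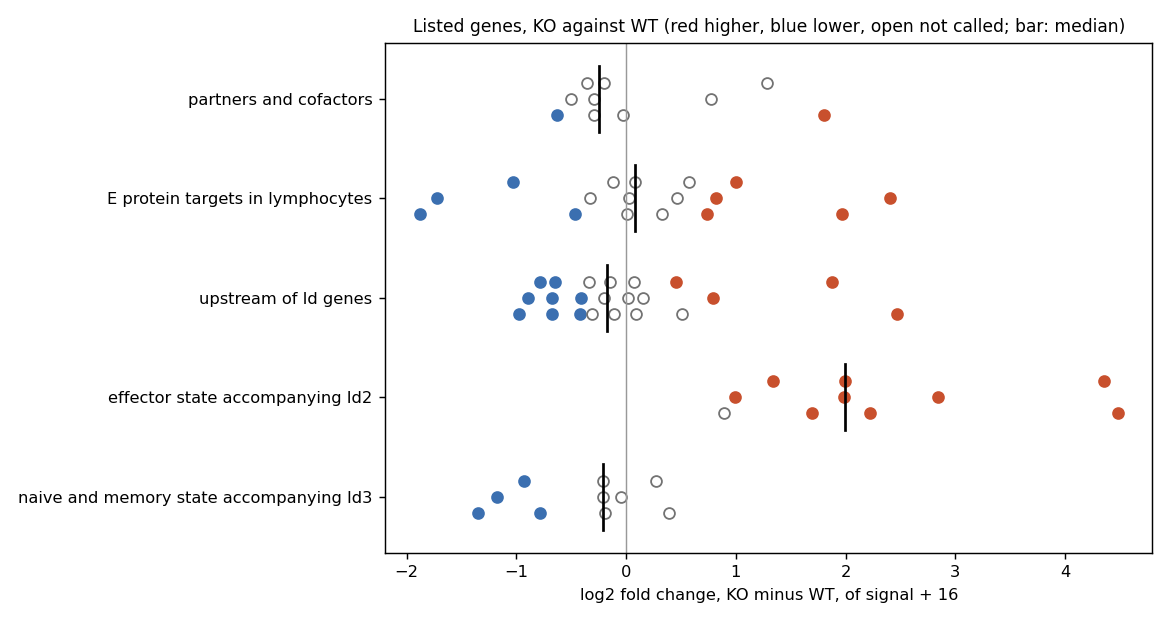
Log2 fold change, KO minus WT, of every tested gene of the 5 lists, 1 point per gene at its leading probe set, with the median as a bar. The effector list lies wholly right of 0 with a median of 1.99, and no gene of the naive and memory list was called higher.

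Effector genes that go with Id2 in T cells were higher in KO cells. Of 12 listed 10 were tested, 9 rose, none fell (0 also at an unadjusted limma p under 0.05) and 1 did not pass. Thus 90% rose, against 10.5% of all genes, and the median log2 fold change was 1.99. The smallest p-values were those of the granzymes Gzma (4.35 ± 0.15 SE) and Gzmb (2.84 ± 0.14), the cytokine gene Ifng (1.99 ± 0.18) and the pore-forming perforin gene Prf1 (2.22 ± 0.25), with limma adjusted p of at most 0.000654. Of the 12 naive and memory genes that go with Id3, 10 were tested, 4 fell and 6 did not pass. None rose (1, Eomes, was higher at an unadjusted limma p under 0.05). Thus 40% fell, against 9.87% of all genes, and the median was -0.21. Those that fell were Klf2 (-1.35 ± 0.10), a quiescence factor, Lef1 (-1.18 ± 0.09), a Wnt pathway factor, Slamf6 (-0.93 ± 0.17) and Bcl6 (-0.78 ± 0.19). The calls of Slamf6 and Bcl6 were lost without the intensity trend, and that of Bcl6 also with no filter, without WT array 2 and without KO array 1. The summed signals of the CD8 T cell, mast cell and myeloid markers given above were higher on the same arrays as Id2, Id1 and the effector genes, and their part in these changes was not tested.

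**Figure D5:**
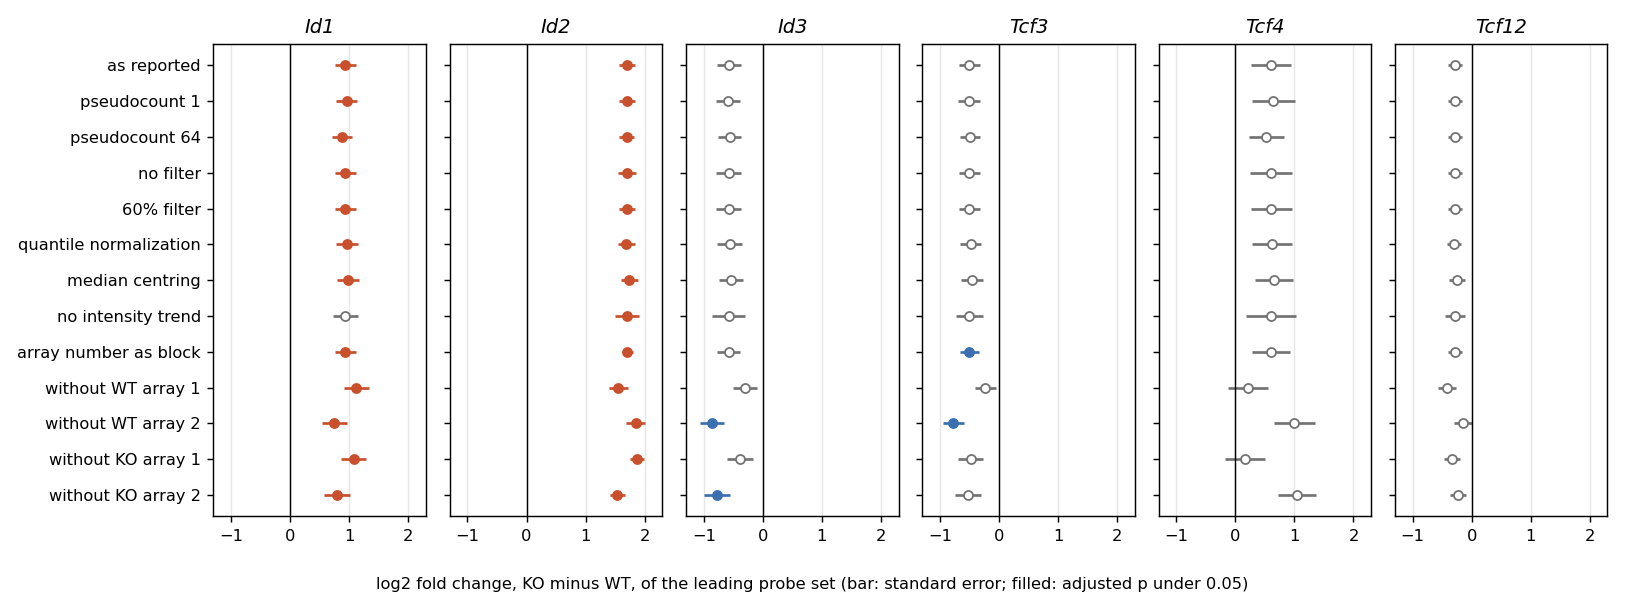
Log2 fold change, KO minus WT, with its standard error for the leading probe set of each gene under every processing alternative, filled where the adjusted p was under 0.05. Id2 is filled in all, Id1 in all but the fit without the intensity trend, Id3 without WT array 2 or KO array 2, Tcf3 without WT array 2 or with the array number as a block, and Tcf4 and Tcf12 in none.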

How the data were processed

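RNA of cultured splenic T cells was measured on 4 single-colour Affymetrix arrays, 2 WT and 2 KO. Per the labels' protocols, 6 micrograms of Trizol-extracted total RNA were made into biotin-labelled cRNA. The deposited values are linear intensity values, and the submitters' processing notes name MAS5 (version not given in the sources used here). The values show a trimmed mean (2% off each end) of 500 on every array and no quantile normalization. Such scaling removes differences in total RNA per cell, and dim MAS5 signals vary strongly. Detection calls were not used here.

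The platform annotation names 1 gene for 34958 of 45101 probe sets, several for 932 and none for 9211. The gene identifiers of all 6 members matched the RefSeq table of GRCm38.p6. 64 control probe sets were left out, then the dimmest 40% by mean over all arrays. Log2(signal + 16) was fitted in limma 3.58.1, run in R 4.3.3 (lmFit, then eBayes with a trend of variance on intensity), two-sided, with 2 residual and 6.41 prior degrees of freedom. With 2 arrays per group, the smallest exact two-sided permutation p is 0.333. Fold changes understate changes of dim genes. Listed genes were read at their leading probe set, and the text names the called partners, from the other lists the 4 genes of smallest p, and the 2 nearest patterns per member. Further names were chosen with their values known. The members and lists were chosen with earlier results of these data known. Promoter windows came from RefSeq for 4 of 6 members. The fit was tested on simulated data with known changes, 50 probe sets of each size among 27022. It called 0% of log2 changes of 0.5, 26% of 1, 58% of 2 and 72% of 3, and 1 of 79 calls was false. Far fewer probe sets changed there than were called in the real data, so these shares may not carry over. Alternatives were the pseudocount, the filter, the normalization, the trend, the array number as a block and leaving out each array.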

Additional observations from a re-analysis of the deposited data

How the results depend on the processing

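Id2 kept its direction and call under all alternatives, with log2 fold changes of 1.54 to 1.87. Id1 kept its direction (0.75 to 1.12) and lost its call without the intensity trend (0.93, limma adjusted p = 0.0887). Id3, Tcf3, Tcf4 and Tcf12 kept their directions, and leaving out single arrays gave -0.86 to -0.30, -0.78 to -0.23, 0.17 to 1.05 and -0.42 to -0.15. The reported 5 member probe sets called became 3 without the trend and 4 to 8 with single arrays left out. Calls over the whole table fell from 2131 higher and 2477 lower to 727 and 456 without the trend, and those of listed genes from 36 to 11. Leaving out single arrays gave 1611 to 1817 higher, 1163 to 2570 lower and 29 to 35 listed genes. The Tcf3 probe set 1452542_x_at went from -0.13 to 0.54 without WT array 1, and to -0.81 without WT array 2, where WT arrays 1 and 2 read 141 and 45.8. The cause was not tested. Numbers shared by WT and KO arrays need not mark shared mice. With the number as a replicate block, Tcf3 (-0.50, adjusted p = 0.0431) and the Tcf4 probe set 1416724_x_at (0.77, adjusted p = 0.0473) passed, 7 member probe sets were called, and 2412 and 2970 probe sets were higher and lower; deviations of same-numbered arrays correlated at 0.0103 across probe sets. With so few arrays the precision of all these values is limited.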
